A study of Mus musculus with 6 samples.

Results

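The synaptic vesicle and exocytosis machinery was followed through 53 genes that encode vesicle membrane proteins, transmitter transporters, the fusion (SNARE) proteins, their regulators and calcium sensors, the Rab3 cycle and the presynaptic active zone. Members were taken by gene symbol, or by the array's target name where the deposited table gave no symbol. This found 74 probes for 50 of the 53 genes, out of 25697 probes on the array. No probe carried the name Stx2, Sv2c or Unc13a, and these 3 genes are not analysed here.

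Total RNA of 3 REST KO and 3 control samples of E14Tg2a, a mouse embryonic stem (ES) cell line, was read on 1 Illumina MouseRef-8 v2 array each, all on the same chip. The source names are FloResCre for the REST KO samples and FloRes for the control samples, and the design text calls the REST KO cells Rest-null. The name of the deposited comparison calls the control side Rest flox. No treatment or time point is given, and the sources used here do not say how many ES cell clones stand behind each genotype, nor whether the replicates were separate cultures. P-values therefore rest on the spread among these arrays alone, and that spread may be technical.

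REST is a transcriptional repressor that binds RE1 elements and holds many neuronal genes silent in cells that are not neurons. Synaptic vesicles are filled with transmitter by vesicular transporters and fuse with the plasma membrane when the vesicle SNARE (VAMP) zips up with syntaxin and SNAP-25. Synaptotagmins sense the calcium that triggers release, complexins clamp and assist the SNARE complex, and Rab3, RIM and Munc13 proteins bring vesicles to release sites. Most of these families also hold members that are used for secretion in nearly every cell, so an ES cell is a setting in which neuronal and general paralogues can be followed side by side.

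The single probe for Rest, the deleted gene, was detected on no array: it stood at 4.87, 4.92 and 5.08 (log2) in REST KO cells, against 4.94, 4.97 and 5.11 in control cells, so it does not check the labels. The mean squared difference between replicate arrays, in units of what the spread over beads gives, was 2.29 to 4.06 among the REST KO arrays. It was 3.46 between control replicates 1 and 3, and 13.29 and 12.96 where control replicate 2 was one of the pair. Control replicate 2 thus stood apart from the other controls over the probes detected on all 6 arrays, and calls made without it are given below.

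Of the 50 members on the array, 30 had a probe detected on at least 3 of the 6 arrays (detection p under 0.05) and were tested. Of the rest, 18 were detected on no array and 2, Syt5 and Syt13, on 1 control array each. Levels below are log2 of background-corrected, quantile normalized intensity, on which the lowest detected value per array lay between 5.72 and 5.86. The 36 member probes that were not tested lay between 4.80 and 5.94 on every array, and their differences between genotypes ran from -0.39 to 0.32. The undetected members included Snap25, the neuronal t-SNARE, Vamp1, a vesicle SNARE read by 4 probes, and Syt1 and Syt2, the fast calcium sensors of neurons. They also included Bsn, the active zone scaffold bassoon, and Rab3b and Rab3c. These genes stayed at background in REST KO cells as in control cells, which bounds their level but not their expression below it.

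**Figure D1:**
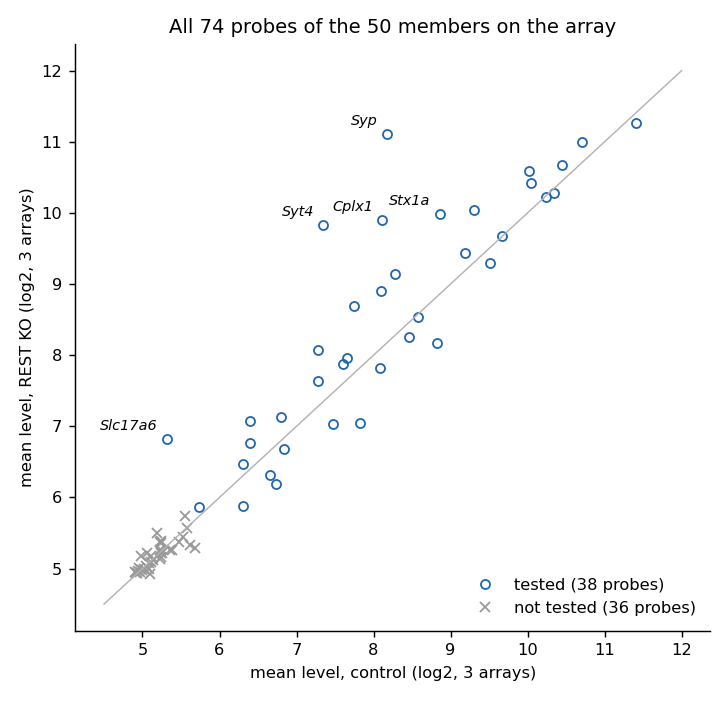
Mean level in REST KO cells (vertical axis, log2, 3 arrays) against the mean level in control cells (horizontal axis, log2, 3 arrays) for each of the 74 member probes. Circles are the 38 tested probes and crosses the 36 that were not tested, which crowd near background; Syp, Syt4, Cplx1, Stx1a and Slc17a6 stand above the line of equal level.

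By the brightest tested probe of each gene, 1 of the 30 tested members, Slc17a6, was called as higher in REST KO cells and none as lower (limma, Benjamini-Hochberg adjusted p under 0.05 over 11388 probes). Slc17a6 passed the detection filter through the REST KO arrays alone, and among the 28 members detected on all 6 arrays 0 were called, with 12 higher and 4 lower at an unadjusted p under 0.05. Over all tested probes 1.27% were called, 1.05% as higher and 0.22% as lower, and 1 called member is too few to compare with these shares. At an unadjusted p under 0.05, 13 members were higher and 4 lower, where 9.86% of all tested probes were higher and 10% lower (19.9% in all). The REST KO arrays all lay above the control arrays in 12 members and all below in 3, where the same held for 12.1% and 13% of all tested probes. A log2 difference of at least 1 was seen upward in 5 members (1.8% of all tested probes) and downward in none (0.65%). The median log2 difference was 0.25 over the 30 members and -0.02 over all tested probes. Over the 28 members detected on all 6 arrays the median was again 0.25, and 11 had REST KO arrays above all control arrays. In bulk RNA, more RNA per cell and more cells that carry it cannot be told apart.

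**Figure D2:**
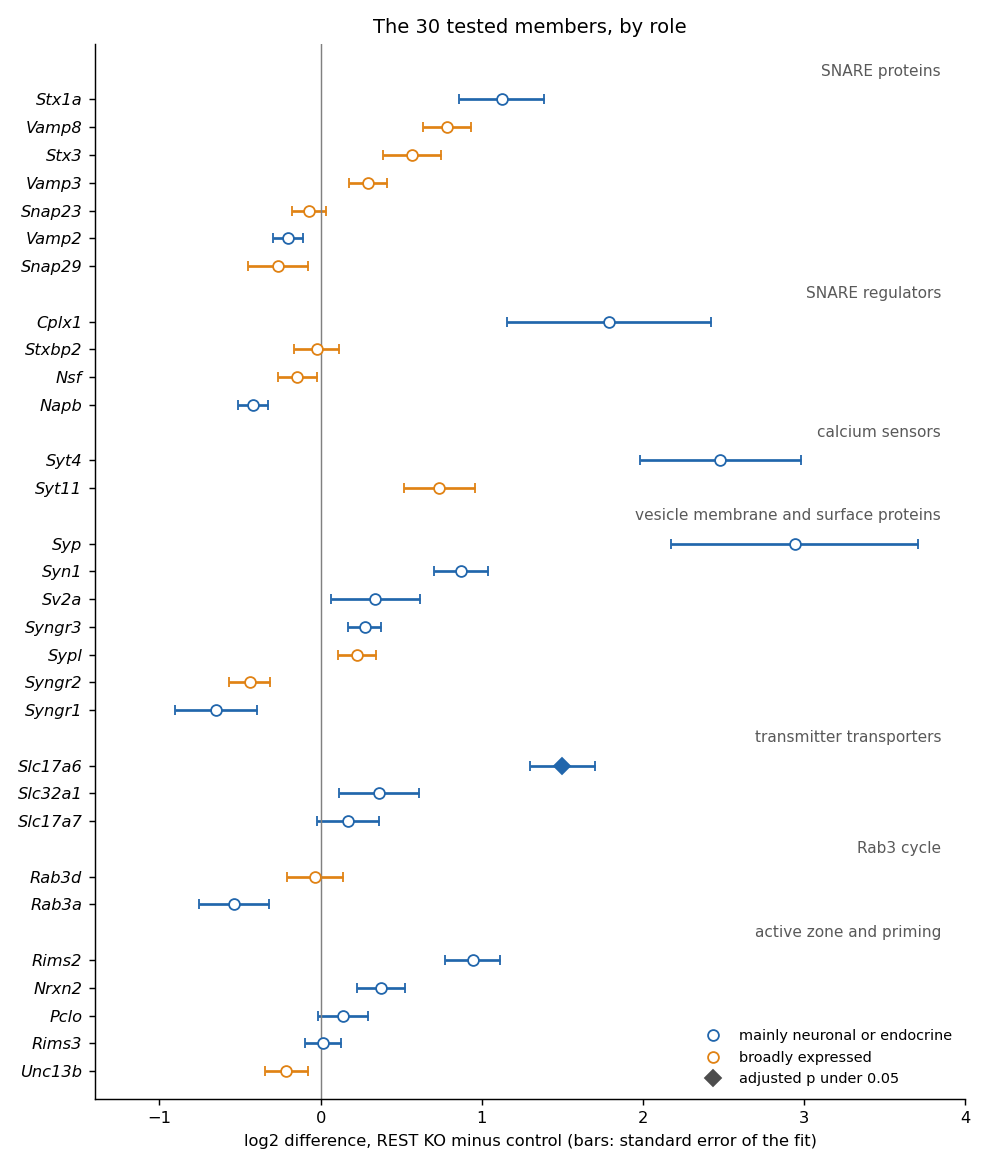
Log2 difference, REST KO minus control (horizontal axis), of each of the 30 tested members by its brightest tested probe, grouped by role, with the standard error of the fit as a bar, blue for mainly neuronal or endocrine and orange for broadly expressed members. The only filled diamond, Slc17a6, is the one past the threshold; Syp, Syt4 and Cplx1 lie farthest to the right, with the widest bars.

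The called member was a transmitter transporter. Slc17a6 encodes VGLUT2, which loads glutamate into synaptic vesicles. Its raw intensity was 214.5, 218.6 and 176.4 in the REST KO replicates 1 to 3, against 107.2, 119.6 and 120.9 in the control replicates. On the log2 scale the levels were 7.04, 7.01 and 6.40 in REST KO cells, against 5.08, 5.47 and 5.39 in control cells. All REST KO arrays detected the probe and no control array did, so the control side is a background value and the gene entered the test only through the genotype in which it is high. Against the lowest detected level the REST KO level was at least 2.04-fold higher, a bound that was not tested. The fitted log2 difference, which uses the control background values, was 1.50 ± 0.20 (SE, n = 3 per genotype, limma, adjusted p = 0.0274). The standard error of the bead mean, which covers reading error within an array only, was 8.43 to 9.47 intensity units on the REST KO arrays and 5.16 to 7.31 on the control arrays. The call was lost with no filter on dim probes (adjusted p = 0.0536) and without control replicate 1 (0.0910) or REST KO replicate 1 (0.166), 2 (0.163) or 3 (0.0568). It was also lost with the replicate number as a block, as given in the closing section. The gene was not tested under the 2 stricter detection filters. Over 15 alternatives its adjusted p ran from 0.00939 to 0.166 and its log2 difference from 0.82 to 1.70. The other transporters were detected on all 6 arrays and were not called: Slc17a7, the cortical glutamate transporter VGLUT1, had 0.17 ± 0.19 (adjusted p = 0.662). Slc32a1, which loads GABA and glycine, had 0.36 ± 0.25 (adjusted p = 0.453).

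Promoter windows of 300 bases (250 before to 50 after an annotated start) from RefSeq, build GRCm38.p6, were searched for the RE1 element, because REST is the deleted factor. They were found for 40 of the 53 members, 24 of the 30 tested ones among them. The core searched, on both strands, was CAGCACC and GGACAG with any 2 bases between them, which fixes 13 letters. No member held it without a mismatch, while 0.0407% of all 27025 genes with a window did. With up to 2 mismatches 4 of the 40 members held it, as did 2.22% of all genes. Those members were Slc17a6, Syn1 and Rph3a with 1 mismatch each and Syt2 with 2. The windows of the first 2, which were detected on the REST KO arrays, are shown whole with the match in capitals, and only the matching stretch is shown for the other two, which no array detected.
Slc17a6, chr7:51621580-51621879, plus strand: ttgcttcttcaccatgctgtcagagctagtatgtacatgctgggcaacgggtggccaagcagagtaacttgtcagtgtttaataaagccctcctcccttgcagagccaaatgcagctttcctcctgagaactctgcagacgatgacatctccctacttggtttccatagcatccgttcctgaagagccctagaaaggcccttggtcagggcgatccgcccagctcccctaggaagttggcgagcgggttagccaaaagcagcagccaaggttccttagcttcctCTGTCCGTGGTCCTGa
Syn1, chrX:20920869-20921168, minus strand: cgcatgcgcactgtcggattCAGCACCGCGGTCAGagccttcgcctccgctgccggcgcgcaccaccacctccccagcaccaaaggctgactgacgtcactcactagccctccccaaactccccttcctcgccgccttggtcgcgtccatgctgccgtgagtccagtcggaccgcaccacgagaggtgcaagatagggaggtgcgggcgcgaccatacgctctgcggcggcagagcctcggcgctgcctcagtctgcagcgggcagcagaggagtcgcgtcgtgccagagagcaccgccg
Rph3a, within chr5:121009489-121009788, minus strand: CTGTCCGTGGTACTG
Syt2, within chr1:134646362-134646661, plus strand: GCGCACCGAGGACAG
In Slc17a6 the match begins 34 bases after the annotated start and reads on the opposite strand, and in Syn1 it begins 230 bases before the start. Syn1 also held the left half-site TTCAGCACC without a mismatch, found in 0.433% of all genes, overlapping that core match. It held the cyclic AMP response element TGACGTCA as well, found in 2.03% of all genes. The right half-site GGACAGCGC was found, of the members, in Unc13a alone, which also held the left one and has no probe here, and in 0.477% of all genes. The windows are short, REST binding was not measured, and a match is a description of letters. Rph3a and Syt2 carried such letters and stayed at background in both genotypes. Of the other members with a log2 difference of at least 1, Syp, Stx1a and Cplx1 had a window without a core match. The remaining one, Syt4, had no window and was not searched. Vamp8 had a window without a core match, and Rims2 was not searched for want of a window.

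Vesicle membrane proteins held the member with the largest difference. Syp, on the X chromosome, encodes synaptophysin, the classical marker of synaptic vesicles. Its raw intensity was 2224.2, 2356.7 and 2289.7 in REST KO cells, against 228.4, 227.6 and 1314.7 in control cells. The log2 levels were 11.09, 11.18 and 11.07 in REST KO cells, against 7.004, 7.29 and 10.22 in control cells. All REST KO arrays were above all control arrays, and control replicate 3 lay 77.4% of the way from the other controls to the REST KO mean. The log2 difference of 2.94 ± 0.77 (SE) did not pass (adjusted p = 0.102). Without control replicate 3 the difference was 3.97 ± 0.13 and passed (adjusted p = 0.000129). Leaving out the control nearest the REST KO level widens a difference by construction, so a pass gained in this way is no further support. The same holds for the members below that are given without their nearest control. It did not pass without control replicate 1 (2.35 ± 0.76, adjusted p = 0.294) or 2 (2.49 ± 0.80, adjusted p = 0.0811).

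Sypl, the paralogue of synaptophysin found in most tissues, showed no such gap. Its brighter probe stood at 10.72, 10.76 and 10.53 (log2) in REST KO cells, against 10.38, 10.37 and 10.58 in control cells, and the genotypes overlapped. The log2 difference was 0.23 ± 0.12 (adjusted p = 0.323), and that of its dimmer probe was 0.26 ± 0.15 (adjusted p = 0.375).

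**Figure D3:**
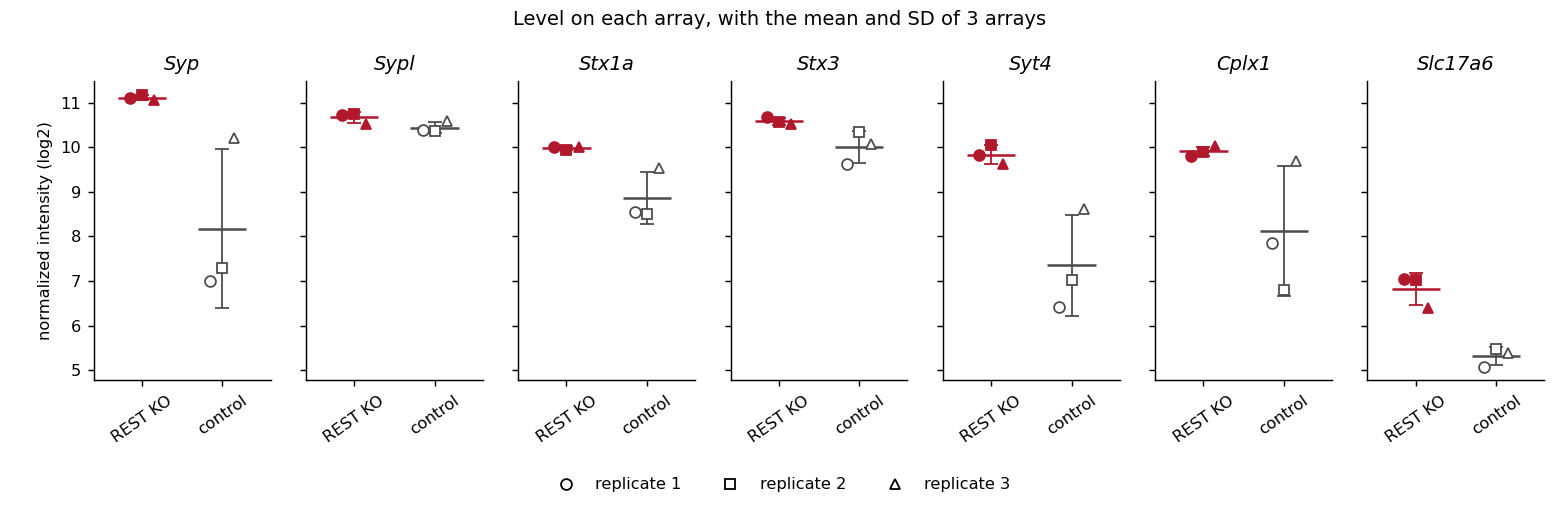
Level (log2 normalized intensity) of 7 members on each array, REST KO left of control in each panel, with the replicate number as the marker shape and the mean and SD over 3 arrays as lines. The REST KO arrays cluster tightly in Syp, Stx1a and Cplx1, while control replicate 3 (triangle) lies well above the other controls in these genes and in Syt4, and not in Slc17a6.

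Syn1, also on the X chromosome, encodes synapsin I, which tethers vesicles to the cytoskeleton in a reserve pool, and it is read by 2 tested probes. The brighter one stood at 9.08, 9.25 and 9.10 (log2) in REST KO cells, against 7.96, 8.26 and 8.60 in control cells. The second stood at 8.81, 8.99 and 8.89 in REST KO cells, against 7.84, 8.05 and 8.39 in control cells. Both probes separated the genotypes, with log2 differences of 0.87 ± 0.17 (adjusted p = 0.0552) and 0.81 ± 0.15 (adjusted p = 0.0549), just short of the threshold. Control replicate 3 was again the highest control, 46.9% of the way to the REST KO mean by either probe. Syn1, Rims2 and Vamp8 fall outside the rule for genes given in full and were chosen after their values were seen, since they lie nearest the threshold. The other synapsins, Syn2 and Syn3, were detected on no array.

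The synaptogyrins, vesicle proteins related to synaptophysin, had values on both sides of 0 and none was called. Syngr3 had a log2 difference of 0.27 ± 0.10 (adjusted p = 0.207), Syngr2, the form of non-neuronal cells, had -0.44 ± 0.13 (adjusted p = 0.129) and Syngr1 had -0.65 ± 0.26 (adjusted p = 0.219). A second Syngr1 probe gave -0.78 ± 0.31. The dimmer Syngr2 probes gave -0.16 ± 0.19 and -0.34 ± 0.20, both with overlapping arrays. In Syngr1 control replicate 2 (8.22) lay among the REST KO arrays (7.98 to 8.38) and below the other controls (9.19 and 9.05). Sv2a, a vesicle glycoprotein that neurons use widely, had 0.34 ± 0.28 and 0.67 ± 0.34 by its 2 probes, and there control replicate 2 was the highest control by both. Sv2b was detected on no array.

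Among the SNARE proteins, Stx1a had the largest difference. It encodes syntaxin 1A, the plasma membrane SNARE of neurons and endocrine cells. Raw intensity was 1103.1, 1046.8 and 1143.0 in REST KO cells, against 495.1, 420.0 and 848.4 in control cells, and the log2 levels were 10.01, 9.93 and 10.01 in REST KO cells, against 8.54, 8.51 and 9.53 in control cells. The genotypes did not overlap, and control replicate 3 lay 69.1% of the way to the REST KO mean. The log2 difference of 1.12 ± 0.26 did not pass (adjusted p = 0.0855), and without control replicate 3 it was 1.46 ± 0.11 and passed (adjusted p = 0.00367). It did not pass without control replicate 1 (0.96 ± 0.29, adjusted p = 0.277) or 2 (0.94 ± 0.26, adjusted p = 0.0568).

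Stx3, a syntaxin of polarised epithelia, mast cells and ribbon synapses, stood at 10.67, 10.56 and 10.52 (log2) in REST KO cells, against 9.63, 10.34 and 10.08 in control cells by its brightest probe. The genotypes did not overlap, but here control replicate 2 was the one nearest the REST KO arrays. The log2 difference was 0.57 ± 0.18 (adjusted p = 0.151), and a second probe gave 0.31 ± 0.21 with overlapping arrays. Without control replicate 2 the brightest probe had 0.73 ± 0.15 and passed (adjusted p = 0.0280), and without control replicate 1 it had 0.37 ± 0.13 and did not (adjusted p = 0.330).

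None of the 3 tested vesicle SNAREs was called, and the neuronal one was the only one with a difference under 0. Vamp2, synaptobrevin 2 of neurons, was lower on all REST KO arrays (8.24, 8.21 and 8.31) than on all control arrays (8.47, 8.40 and 8.51), with a log2 difference of -0.20 ± 0.09 (adjusted p = 0.287). Vamp3, cellubrevin of recycling endosomes, was higher on all REST KO arrays by both probes, with 0.29 ± 0.12 (adjusted p = 0.224) and 0.38 ± 0.11 (adjusted p = 0.123). Vamp8, which serves endosome fusion and secretion in exocrine and blood cells, stood at 8.09, 8.33 and 7.79 (log2) in REST KO cells, against 7.34, 7.21 and 7.30 in control cells. Its difference of 0.79 ± 0.15 missed the threshold (adjusted p = 0.0549), and its control arrays lay close together. A second Vamp8 probe was detected on no array and read -0.08, so the gene rests on 1 probe. Snap23, the general counterpart of Snap25, had -0.07 ± 0.11 (adjusted p = 0.743), and Snap29, of intracellular fusion, had -0.26 ± 0.19.

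Among the regulators of the SNARE complex, Cplx1 stood apart. It encodes complexin I, which binds assembled SNAREs. Raw intensity was 969.9, 1014.9 and 1148.7 in REST KO cells, against 338.1, 187.9 and 935.5 in control cells, and the log2 levels were 9.81, 9.88 and 10.02 in REST KO cells, against 7.85, 6.81 and 9.69 in control cells. The genotypes did not overlap, but control replicate 3 lay 91.7% of the way from the other controls to the REST KO mean. The log2 difference was 1.79 ± 0.63 (adjusted p = 0.183) and, without control replicate 3, 2.58 ± 0.29 (adjusted p = 0.0125). Without control replicate 2 it was 1.13 ± 0.47 (adjusted p = 0.148) and without control replicate 1 it was 1.65 ± 0.75 (adjusted p = 0.433). Nsf, the ATPase that takes spent SNARE complexes apart, had -0.14 ± 0.12 (adjusted p = 0.546), and Stxbp2, the Munc18 form of epithelial and blood cells, had -0.03 ± 0.14. Napb, the beta-SNAP of brain that recruits Nsf, was lower on all REST KO arrays (5.86 to 5.90) than on all control arrays (6.25 to 6.38), at levels just above background, with -0.42 ± 0.09 (adjusted p = 0.076). Cplx2 and Snph, the mitochondrial anchor syntaphilin, were detected on no array.

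Only 2 of the 10 calcium sensors were tested. Syt4, on chromosome 18, encodes a synaptotagmin of neurons and secretory cells whose first C2 domain differs from that of the fast sensors. Raw intensity was 973.2, 1121.3 and 894.3 in REST KO cells, against 185.6, 203.1 and 492.6 in control cells, and the log2 levels were 9.82, 10.04 and 9.62 in REST KO cells, against 6.42, 7.01 and 8.61 in control cells. The genotypes did not overlap, and control replicate 3 covered 60.9% of the gap. The log2 difference of 2.48 ± 0.50 did not pass (adjusted p = 0.0631). It passed without control replicate 3 (3.11 ± 0.21, adjusted p = 0.00214) and without control replicate 2 (2.31 ± 0.56, adjusted p = 0.0395), but not without control replicate 1 (2.01 ± 0.44, adjusted p = 0.177). Syt11, its close relative with a wider distribution, stood at 10.18, 10.22 and 9.73 (log2) in REST KO cells, against 9.08, 9.75 and 9.08 in control cells. It had 0.74 ± 0.22 (adjusted p = 0.134) by 1 probe, with overlapping arrays, while its other probes were detected on no array. Syt3, Syt7 and the soluble sensors Doc2a and Doc2b were at background too.

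No gene of the Rab3 cycle was called. Rab3a, the main Rab3 of synaptic vesicles, stood at 6.18, 5.93 and 6.46 (log2) in REST KO cells, against 7.10, 6.33 and 6.76 in control cells, with overlap and a difference of -0.54 ± 0.22 (adjusted p = 0.233). Rab3d, of exocrine granules, had -0.04 ± 0.17 (adjusted p = 0.932). The Rab3 effector Rph3a, rabphilin, was detected on no array.

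At the active zone, Rims2, a Rab3-binding scaffold that primes vesicles, stood at 8.82, 8.61 and 8.64 (log2) in REST KO cells, against 7.38, 7.90 and 7.96 in control cells. The difference of 0.95 ± 0.17 separated the genotypes and missed the threshold narrowly (adjusted p = 0.0521). Its short relative Rims3 had 0.02 ± 0.11 (adjusted p = 0.956), and Rims1 was at background. The presynaptic adhesion gene Nrxn2 had 0.37 ± 0.15 (adjusted p = 0.228), with REST KO arrays above all control arrays, and a second probe at background. Unc13b, Munc13-2, had -0.21 ± 0.13 (adjusted p = 0.414). Pclo, piccolo, was detected on 1 REST KO array and 2 control arrays and had 0.14 ± 0.16.

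Divided by where the genes are mainly used, a division made from general knowledge, 14 of 18 tested neuronal or endocrine members and 5 of 12 broadly expressed ones had a difference above 0, where 47.3% of all tested probes did. The median log2 difference was 0.35 over the neuronal members and -0.03 over the broad ones, and over the 16 neuronal members detected on all 6 arrays it was 0.35 as well. All 5 members with a difference of at least 1 were neuronal, where 1.8% of all tested probes rose that far. Slc17a6, which passed the detection filter through the REST KO arrays alone, is 1 of them and is part of the means that follow. Of the 16 neuronal members detected on all 6 arrays, 12 had a difference above 0 and 4 had one of at least 1. The mean level of the 18 neuronal members was 8.10, 8.08 and 8.05 (log2) in REST KO cells, against 7.29, 7.23 and 7.80 in control cells. That of the 12 broad members was 9.60, 9.59 and 9.51 in REST KO cells, against 9.47, 9.43 and 9.45 in control cells. Whether the 2 classes differ was not tested, and the lists were written with earlier results of these arrays known.

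**Figure D4:**
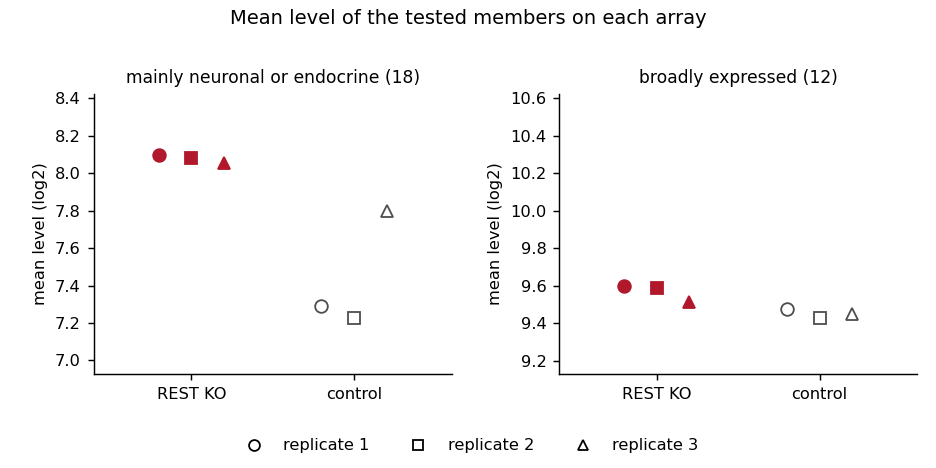
Mean level (log2) of the tested members on each array, for the 18 mainly neuronal or endocrine members (left) and the 12 broadly expressed members (right), with REST KO left of control and both vertical axes of equal length. Control replicate 3 stands at 7.80 on the left, against 7.29 and 7.23 in the other controls, and among them on the right (9.45).

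Members differed in which control was nearest to the REST KO level. It was control replicate 3 in Syp, Cplx1, Stx1a, Syt4 and Syn1, where it covered between 46.9% and 91.7% of the gap. Control replicate 3 was also nearest in Sypl (70.2%), a broad member with a small difference, in Syngr3 (47.9%) and in Rims2 (30.6%). In Slc32a1 it lay past the REST KO mean (115%). The nearest was control replicate 2 in Stx3 and in the brighter Vamp3 probe, where that array covered 66.2% and 67.1%. In Slc17a6 the shares were 7.42% for control replicate 3 and 15.1% for control replicate 2, and in Vamp8 2.34% and -14.5%. The counts of calls moved with these arrays. Without control replicate 3 limma called 7 members as higher (Cplx1, Rims2, Slc17a6, Stx1a, Syn1, Syp and Syt4), where 2.04% of all tested probes were called as higher and 0.158% as lower. Without control replicate 2 it called 7 as higher (Rims2, Slc17a6, Stx3, Syn1, Syt11, Syt4 and Vamp8) and 3 as lower (Napb, Rab3a and Syngr1), where 7.16% and 7.31% of all tested probes were called. With control replicate 1 left out, or each REST KO array in turn, the count of called members and of called probes was 0 by limma, with 8 to 10 members higher and 2 to 4 lower at an unadjusted p under 0.05. The share of all tested probes at that unadjusted p was not counted in these fits. In the reported fit it was 9.86% higher and 10% lower. All control arrays lay on the first positions of the chip and all REST KO arrays on the last, so position and genotype cannot be told apart.

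In the comparison deposited by the authors, 8 probes of 7 members passed an adjusted p of 0.05, all as higher in REST KO cells, where 1.29% of its 25695 probes did (1.74% in either direction). In the authors' deposited table these were Slc17a6 (log2 fold change 0.82, adjusted p = 0.00980), Syt4 (1.92, 0.0141), Rims2 (0.72, 0.0142), both Syn1 probes (0.71 and 0.64), Vamp8 (0.55), Stx1a (0.98) and Syp (2.49, adjusted p = 0.0464). The authors' deposited table rests on the same 6 arrays, without background correction, and is not a second experiment.

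Other genes of the pathway were read from 6 further lists of 178 genes, of which 110 were tested. None was called as higher and 1 was called as lower (limma), and at an unadjusted p under 0.05, 11 were higher and 10 lower. Over all tested probes 1.05% were called as higher and 0.22% as lower, and at an unadjusted p under 0.05, 9.86% were higher and 10% lower. The gene called as lower was Lin7b, a PDZ adaptor of synaptic and epithelial junctions, with a log2 difference of -0.88 ± 0.14 (adjusted p = 0.0434). That value is from the brightest tested of its 4 probes, and the others are not given here. The probe stood at 6.05 (log2) in REST KO cells, just above background, and at 6.92 in control cells. REST KO arrays lay above all controls in 14 genes and below all in 9, and 50 differences were above 0, with a median of -0.02. Over all tested probes these shares were 12.1%, 13% and 47.3%. The 110 genes lay close to the first and the last of these, and a smaller share of them lay below all controls. Medians of the lists ran from -0.13 for 21 genes of Rab-guided secretion and the exocyst to 0.05 for 11 further vesicle membrane proteins and transporters. The 29 other SNARE and Munc18-type genes had a median of -0.03, with none called. The largest difference was that of Svop, a transporter-like vesicle protein (0.91 ± 0.36, adjusted p = 0.221). The 20 genes of vesicle endocytosis and the 16 of the proton pump that acidifies vesicles had medians of 0.01 and -0.05, with none called.

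The labelled cell type was checked by markers. All 8 ES cell markers, from Pou5f1 to Tdgf1, were detected on all 6 arrays and none was called, but all 8 differences were below 0, with a median log2 difference of -0.48. Esrrb had -1.01 ± 0.41 (adjusted p = 0.228) and Zfp42 had -0.99 ± 0.45 (adjusted p = 0.279). In Sox2 every REST KO array was below every control array, with a difference of -0.81 ± 0.17 (adjusted p = 0.0714). Their summed normalized intensity was 77355 to 90568 on the REST KO arrays and 81998 to 109886 on the control arrays. The sum is on the linear scale, so the brightest marker, Dppa5a, weighs most in it. Dppa5a stood at 15.79 (log2) in REST KO cells and 15.80 in control cells, so the sum says little about the dimmer markers. Of 9 neuronal markers on the array, 4 were detected on all REST KO arrays (Map2, Elavl3, Nefm and Gap43) and 1, Map2, on all control arrays, while Tubb3, Elavl4, Dcx, Neurod1 and Nefl were detected on none. The summed normalized intensity of the neuronal markers was 751 to 838 on the REST KO arrays and 422 to 680 on the control arrays. Of 7 neuroendocrine markers 2 (Chga and Scg3) were detected on all REST KO arrays and none on all control arrays, with sums of 816 to 863 on the REST KO arrays and 263 to 539 on the control arrays, and Chgb, Scg2, Ins1 and Ins2 were detected on none. Scg3, at 8.83 (log2) in REST KO cells and 5.85 in control cells, weighs most in the REST KO sums. The 6 glial markers summed to 271 to 278 on the REST KO arrays and 255 to 304 on the control arrays. The 6 fibroblast markers summed to 268 to 274 on the REST KO arrays and 257 to 278 on the control arrays. Gfap, Aqp4, Mog, Col1a1, Col1a2, Col3a1, Pdgfra and Dcn were detected on none. The summed neuronal and neuroendocrine markers were thus higher on every REST KO array than on every control array. None of the 4 tested neuronal and 2 tested neuroendocrine markers was called, and the sums include the markers detected on no array. Of the 18 tested neuronal members, 9 had all REST KO arrays above all control arrays and 2 had them all below. Among the 16 of them detected on all 6 arrays, these counts were 8 and 2. The shares over all tested probes were 12.1% and 13%. The part of the neuronal, neuroendocrine and ES cell markers in the members' differences was not tested.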

How the data were processed

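The authors deposited mean bead intensities and bead counts for each probe and array, exported from BeadStudio 3.3.7 without normalization, per the file headers. They also deposited a detection score that rises with the signal, and 1 minus the score served as the detection p. The authors' log2 values equal quantile normalized log2 intensities to within 5e-09. The authors deposited adjusted p-values and log2 fold changes of their comparison, for which the labels name limma, and these were used where credited to them. The genome build is not given in the sources used here.

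Intensities were background corrected by a normal-exponential model on the detection p, with an offset of 16 that shrinks differences of dim probes, and quantile normalized (neqc, limma 3.58.1, R 4.3.3). Probes detected (p under 0.05) on at least 3 of 6 arrays, 11388 of 25697, were tested with lmFit and eBayes on genotype, two-sided, with Benjamini-Hochberg adjustment. Errors of differences are standard errors of that fit. "At least" folds set the bright genotype against the lowest detected level or the probe's own value, whichever is higher. A gene is given by its brightest tested probe. The share of detected probes ran from 42.5% to 44.9%, and 3 arrays per genotype limit the precision. Squared differences between replicate arrays were at least 2.29 times those that the spread over beads gives, so none were merged.

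The members and lists were chosen with earlier results of these data known. Full values are given for called members, members with a log2 difference of at least 1, and their tested broadly expressed paralogues in a set of families that held no synaptotagmins. Alternatives covered normalization, offset, filters, eBayes options, array weights, a replicate block and leaving out each array.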

Additional observations from a re-analysis of the deposited data

How the results depend on the processing

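Among 117 values of the 7 members given in full by rule, under 17 alternatives, no difference changed sign. The number of called members was 1 by the reported fit, with cyclic loess (138 of all probes called) and with any probe of a gene. It was 2 with median scaling (154 probes), 3 of 24 with a detection p under 0.01 (173 of 8174 probes), 4 with an intensity trend and robust prior, 5 with an offset of 50, and 6 with quantile normalization without background correction and with the authors' deposited log2 values, all as higher. It was 10 with array weights, 7 higher and 3 lower, where 6.41% of all probes were called as higher and 5.76% as lower. It was 0 with no filter and with detection on all 6 arrays, where Slc17a6 is not tested, though 13 and 12 members had an unadjusted p under 0.05 as higher in these limma fits. Leaving out 1 array gave 0 to 10 called members, and 0 to 1647 called probes among all tested, of which the reported fit called 145. Among all tested probes the count was 332 with quantile normalization alone and with the authors' values (2.27% as higher), 274 with offset 50 (1.92% as higher), 50 with no filter, 69 with detection on all arrays, 364 with the trend and robust prior (2.39% as higher) and 1386 with array weights (730 higher, 656 lower). With the replicate number as a block limma called 0 members and 0 probes (Slc17a6 log2 difference 1.50, adjusted p = 0.0719), with 12 members higher and 4 lower at an unadjusted p under 0.05. The share of all probes at that unadjusted p was not counted with a block, with no filter or with detection on all 6 arrays. In the reported fit it was 9.86% higher and 10% lower. Deviations of same-numbered arrays correlated at -0.27, 0.34 and 0.36, and not every array correlated best with its own number. These values are too few to settle whether the numbers pair the arrays. The cause of these movements was not tested, except that requiring detection on all 6 arrays leaves Slc17a6 out of the test. Signal over background limits the 20 members that were not tested.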
